A study of Mus musculus with 27 samples.

Results

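D1 and D2 medium spiny neurons of mouse striatum were compared in mice with floxed G9a and Cre in the neurons being measured. G9a, encoded by Ehmt2, is a histone H3 lysine 9 methyltransferase. The comparison used the 14 arrays, of 27 in the series, whose titles carry a Cre transgene: 7 of Drd1-Cre mice (3 saline, 4 cocaine) against 7 of Drd2-Cre mice (3 saline, 4 cocaine), with the drugs weighted equally. The remaining 13 arrays, from mice without Cre, gave the same comparison in controls (6 D1 arrays, 2 saline and 4 cocaine, and 7 D2 arrays, 3 saline and 4 cocaine). They were used to ask which differences between the subtypes remained, shrank or appeared in the mutants. A total of 12017 genes, of 18193 gene symbols on the array, were tested.

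The D1 mutants had the genotype Drd1-TRAP; Drd1-Cre; G9a fl/fl and the D1 controls Drd1-TRAP; G9a fl/fl. The D2 controls were Drd2-TRAP; G9a fl/fl, and the D2 mutants are labelled Drd-TRAP; Drd2-Cre; G9a fl/fl, with no receptor number on the TRAP allele. All groups thus shared the floxed G9a alleles and a transgene on a bacterial artificial chromosome (BAC). It places GFP on the ribosomal protein L10a in the cells that express it. Ribosomes of these cells, with the messenger RNA on them, can then be precipitated (translating ribosome affinity purification, TRAP). Whether these cells were medium spiny neurons alone was not tested. Only mutants carried Cre, so loss of G9a and the presence of the Cre transgene cannot be told apart, and each subtype came from a different TRAP line and, in mutants, a different Cre line. All mice were males aged 2 to 5 months on a mixed C57BL/6 and 129/Sv background, given 8 injections of saline or of cocaine at 20 mg/kg/day and taken 2 h after the last. The arrays of a group are labelled as separate replicates, with 2 to 4 mice per genotype and treatment in the design text. For 1 array, D2 mutant cocaine replicate 4, the source name says control while title and genotype say mutant. It was used as a mutant, and what passes under the other reading is given with the changed genes.

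Medium spiny neurons are the GABAergic output neurons of the striatum. D1 neurons carry the Gs-coupled dopamine receptor D1, release substance P and dynorphin and form the direct pathway, whereas D2 neurons carry the Gi-coupled receptor D2, release enkephalin and form the indirect pathway. The identity of each is set in development by transcription factors, among them Isl1 and Ebf1 in D1 neurons and Six3 and Sp9 in D2 neurons. G9a, with its partner GLP, places mono- and dimethyl marks on lysine 9 of histone H3, marks that accompany silencing of genes in euchromatin.

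The promoters of 3 genes are shown because the comparison turns on these genes and a reference sequence was at hand: Hpgd and Acoxl, whose difference between D1 and D2 neurons was present in mutants but not called in controls, and Isl1, a D1 marker whose difference shrank. They were chosen after the values were seen. Sequences are from RefSeq (GRCm38.p6), 5′ to 3′ on the strand of the gene, from 250 bases before to 50 after the transcription start, with CG dinucleotides, the sites of DNA methylation, in capitals. Acoxl lies at chr2:127854378-127854677 on the plus strand, Hpgd at chr8:56294302-56294601 on the plus strand and Isl1 at chr13:116309639-116309938 on the minus strand.
Acoxl: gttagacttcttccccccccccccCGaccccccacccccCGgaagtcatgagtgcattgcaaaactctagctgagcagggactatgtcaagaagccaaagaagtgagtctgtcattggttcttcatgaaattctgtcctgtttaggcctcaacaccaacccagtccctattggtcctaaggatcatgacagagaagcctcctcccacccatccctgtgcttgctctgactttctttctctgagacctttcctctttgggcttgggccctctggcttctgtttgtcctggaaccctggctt
Hpgd: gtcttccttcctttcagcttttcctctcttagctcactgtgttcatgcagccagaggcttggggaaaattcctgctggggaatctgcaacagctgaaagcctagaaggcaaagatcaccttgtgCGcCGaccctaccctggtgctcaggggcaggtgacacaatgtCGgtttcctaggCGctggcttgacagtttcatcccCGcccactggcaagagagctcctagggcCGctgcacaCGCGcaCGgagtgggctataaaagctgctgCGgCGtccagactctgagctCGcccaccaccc
Isl1: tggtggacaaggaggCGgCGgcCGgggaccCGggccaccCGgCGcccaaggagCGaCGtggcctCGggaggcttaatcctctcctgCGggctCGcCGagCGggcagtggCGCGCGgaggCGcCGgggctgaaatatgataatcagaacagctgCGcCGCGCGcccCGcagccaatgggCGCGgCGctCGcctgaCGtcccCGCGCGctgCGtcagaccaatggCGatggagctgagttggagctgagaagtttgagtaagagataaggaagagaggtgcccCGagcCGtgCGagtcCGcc

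The Acoxl window held 2 CG dinucleotides, a number that 23.3% of the 32851 promoters of the same length matched or fell under. The Hpgd window held 12, at 62.1%, and the Isl1 window 37, at 95.0%. At least 1 CG occurred in 94.6% of all promoters. Over the genes whose difference appeared in mutants, 51 of 63 had a promoter entry, with a median of 13 CG, and over those whose difference grew, 23 of 28 had one, with a median of 15. The median was 21 both over the genes called on the same side in both genotypes without a passing change (2181 of 2670 with an entry) and over all genes tested (9709 of 12017). These groups of genes were not matched for signal. The mean log2 signal of both control groups was under 6 in 17 of the 63 and 7 of the 28, against 466 of all 12017 genes. Whether the lower medians go with low control signal was not tested, and differences that shrank or turned were not counted. These counts describe sequence only, and no methylation was measured here.

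Values are log2 signal intensities, on which a difference of 1 is a doubling, and a gene was tested when its probe set exceeded 6 in at least 3 arrays. A difference was called at a Benjamini-Hochberg adjusted p under 0.05 in limma, fitted over all 27 arrays. Within each mutant group the lowest correlation of an array with the others was between 0.983 and 0.993. D1 control cocaine replicates 3 and 4 stood lowest among all arrays, at 0.971. Ttr, a choroid plexus transcript, was high in D1 mutant saline replicate 3 (12.36), D2 control cocaine replicate 3 (11.40) and D1 control cocaine replicate 3 (9.67). The 3′ minus 5′ signal of control probe sets for Gapdh and Actb, which grows as RNA is shortened, was 2.30 ± 0.174 (SD, n = 7) in D1 mutants and 2.22 ± 0.162 (SD, n = 7) in D2 mutants, a difference of 0.0836 with a 2-sided exact permutation p of 0.390.

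Ehmt2 itself had less signal in mutants than in controls of both subtypes. Its signal ran from 8.03 to 9.37 (median 8.72) in D1 mutants against 9.95 to 10.74 (median 10.46) in D1 controls, and from 8.68 to 9.38 (median 8.96) in D2 mutants against 10.67 to 11.01 (median 10.76) in D2 controls. Mutants and controls did not overlap in either subtype. Between the subtypes of the mutants it differed by −0.28 (D1 minus D2), which was not called (limma adjusted p = 0.0746). It was called in the saline mice (−0.57, adjusted p = 0.0301) and without D2 mutant cocaine replicate 1, D1 mutant cocaine replicate 2 or D1 mutant saline replicate 2 (−0.33, adjusted p = 0.0393, in the least favourable of these). Which exons are floxed is not given in the sources used here, so the probe set may lie outside the deleted part. The arrays do not measure G9a protein, so how complete its loss was is not known.

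D1 and D2 neurons of the mutants still differed widely. In mutants 1990 genes (16.6% of those tested) had more signal in the D1 subtype and 3101 (25.8%) had more in the D2 subtype, 42.4% in all. In controls 1428 (11.9%) and 2052 (17.1%) were called, 29.0% in all. Of the mutant calls 39.1% were higher in D1 neurons, and this share became 50.8% (2624 against 2546 genes) when the arrays were scaled by cyclic loess and 40.3% (2034 against 3011) after median centring. The median difference of all genes was −0.04 as deposited. Across the 12017 genes 17.5% had D1 and D2 mutant arrays that did not overlap.

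The 12 largest differences in each direction ran from 2.55 to 6.50 log2 in favour of D1 neurons and from 3.03 to 6.38 in favour of D2 neurons. Eya1, a transcriptional coactivator and phosphatase, led the D1 side, with 12.61 to 13.46 (median 12.92) in D1 mutants and 6.08 to 6.80 (median 6.44) in D2 mutants. Ttc12, a protein of ciliary dynein assembly, led the D2 side, with 11.25 to 12.13 (median 11.53) in D2 mutants and 4.97 to 5.43 (median 5.30) in D1 mutants. Neither pair of groups overlapped, and in controls the differences were 6.49 and −6.69. Of these 24 genes, which were chosen by size, 22 had D1 and D2 mutant arrays that did not overlap. The exceptions were Nr4a2, an activity-induced nuclear receptor (5.16 to 11.30 in D1 mutants and 4.32 to 7.25 in D2 mutants), and Neurod6, a transcription factor of cortical excitatory neurons (2.99 to 7.93 and 2.78 to 3.43). In 22 of the 24 the difference was also called in controls. The subtype with less signal had a mean under 6 for 4 of the 12 genes higher in D1 and for 8 of the 12 higher in D2 neurons, where the array background limits the measured difference.

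Every tested marker of the 2 neuron types kept its side in mutants. All 9 D1 markers were higher in D1 mutants, by 1.18 to 6.50, and all 7 D2 markers were higher in D2 mutants, by 0.61 to 5.90. None of these 16 had overlapping arrays, against 17.5% of all genes without overlap, and all were called on the same side in controls. The labelled cell types thus carried their defining transcripts, although Chrm4 was below the limit for testing and Adora2a, Gpr52 and Sp9 had no probe set of a single symbol. In bulk material of this kind, fewer cells of a type and less RNA per cell cannot be told apart.

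Among the receptors, Drd1 ran from 12.23 to 12.85 (median 12.62) in D1 mutants and from 10.29 to 10.65 (median 10.49) in D2 mutants. In controls it was 12.12 to 12.69 (median 12.60) in D1 and 9.71 to 10.50 (median 9.79) in D2 neurons. The groups did not overlap in mutants or in controls. The difference was 2.11 ± 0.11 (SE; 4.32-fold, limma adjusted p = 7.15e-14) in mutants and 2.60 in controls, and its change of −0.48 did not pass (adjusted p = 0.168), although Drd1 rose by 0.54 in D2 mutants over D2 controls (adjusted p = 0.00113). Drd2 stood at 12.28 to 12.96 (median 12.83) in D2 mutants and at 6.62 to 7.10 (median 6.91) in D1 mutants, against 12.94 to 13.60 (median 13.16) and 6.33 to 7.05 (median 6.83) in controls. Its difference was −5.90 ± 0.11 (SE) in mutants and −6.50 in controls. The change of 0.60 did not pass (limma adjusted p = 0.0779). It did pass without D1 control cocaine replicate 3 (0.65, adjusted p = 0.0324) and without the 3 arrays with high Ttr (0.70, adjusted p = 0.0333). The Drd2 change also passed with array weights (0.57, adjusted p = 0.0217) and with RNA quality as a covariate (0.64, adjusted p = 0.0276).

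The peptide precursors among the markers, Penk, Pdyn and Tac1, kept their differences. Penk, the enkephalin precursor, ran from 13.88 to 14 (median 13.93) in D2 mutants and from 10.77 to 11.65 (median 10.95) in D1 mutants, and from 13.67 to 14.05 (median 13.98) and 11.03 to 11.50 (median 11.33) in the corresponding controls. The arrays did not overlap between subtypes, and the difference was −2.90 in mutants and −2.67 in controls (change: adjusted p = 0.535). Pdyn, the dynorphin precursor, was higher in D1 neurons by 3.84 in mutants and 3.42 in controls, and Tac1, the substance P precursor, by 1.18 and 1.33. The changes of Pdyn and Tac1 did not pass (adjusted p = 0.448 and 0.708).

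Of the 16 markers, 2 transcription factors had a difference that changed, and both shrank. Isl1, which directs D1 neuron development, ran from 10.46 to 10.80 (median 10.64) in D1 mutants and from 10.04 to 10.87 (median 10.76) in D1 controls. In D2 mutants it ran from 7.82 to 8.29 (median 8.03), above every D2 control (6.52 to 7.58, median 7.03), while the D1 groups overlapped. Its difference was 2.59 ± 0.12 (SE, 6.02-fold) in mutants against 3.58 in controls (12-fold), a change of −0.99 ± 0.18 (SE, limma adjusted p = 0.00287). The Isl1 change did not pass in the saline mice alone (−0.83, limma adjusted p = 0.30) or when a fold of at least 1.5 was required. Zfp521, a zinc finger protein of D1 neurons, ran from 7.46 to 7.75 (median 7.58) in D2 mutants and from 6.20 to 6.82 (median 6.45) in D2 controls, without overlap, and from 9.33 to 9.54 (median 9.39) in D1 mutants against 9.08 to 9.29 (median 9.13) in D1 controls. Its difference fell from 2.61 to 1.82 (change −0.79 ± 0.09 SE, adjusted p = 2.7e-06). Isl1 rose by 0.98 in D2 neurons (adjusted p = 1.71e-06) and differed by −0.01 in D1 neurons, and Zfp521 rose by 1.04 in D2 and by 0.25 in D1 neurons (adjusted p = 0.0155 in D1).

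**Figure D1:**
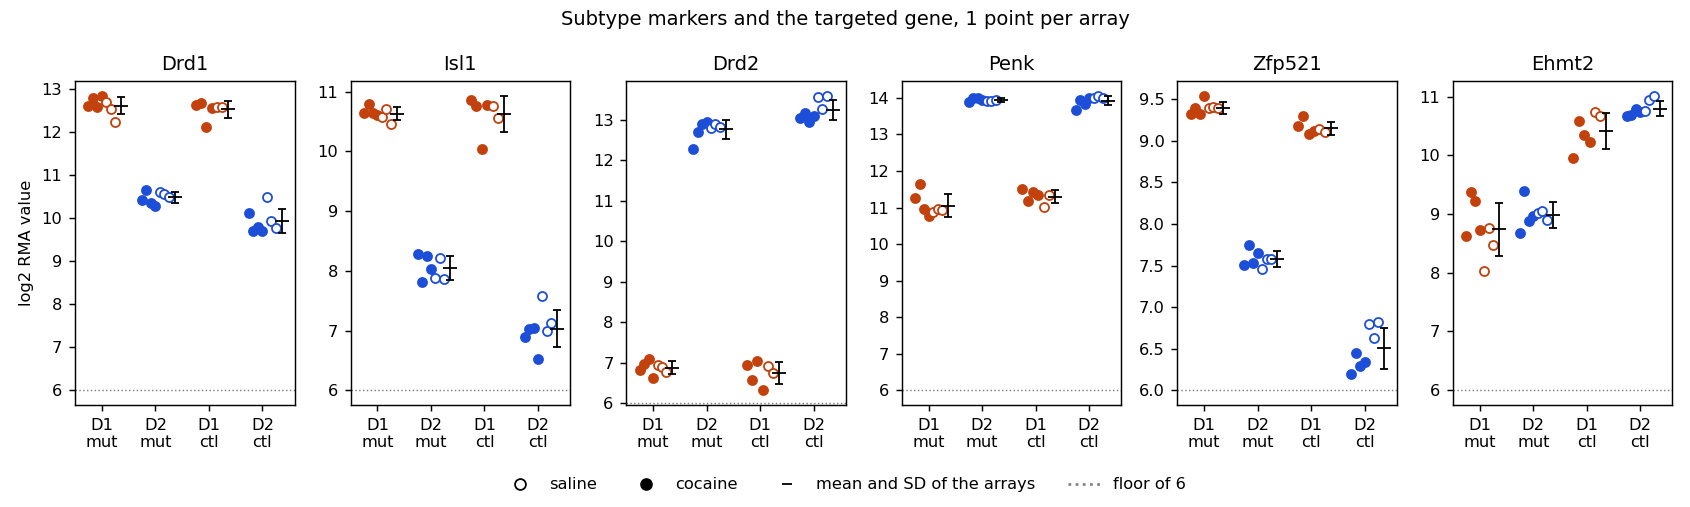
Log2 signal of Drd1, Isl1, Zfp521, Drd2 and Penk on each array, by subtype and genotype, with points for arrays and bars for group means. The receptors and Penk separate the subtypes in mutants and in controls, while Isl1 in D2 mutants (7.82 to 8.29) lies above every D2 control (6.52 to 7.58).

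Most subtype differences of the controls remained. Of the 3480 genes called in controls, 2707 were called on the same side in mutants, which is 77.8% of the control calls and 53.2% of the mutant calls. Leaving out D1 control saline replicate 2 gave 2310 control calls, of which 1897 remained in mutants. Among control differences of at least 1 log2, 211 of 220 remained, and all 35 of at least 2 log2 did. In the other direction, 254 of the 291 mutant differences of at least 1 log2 were called on the same side in controls. The 2 comparisons share no arrays, and over the 12017 genes their differences had a correlation of 0.852, a description over genes that share the same arrays. The median size of the difference was 0.174 in mutants and 0.147 in controls.

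**Figure D2:**
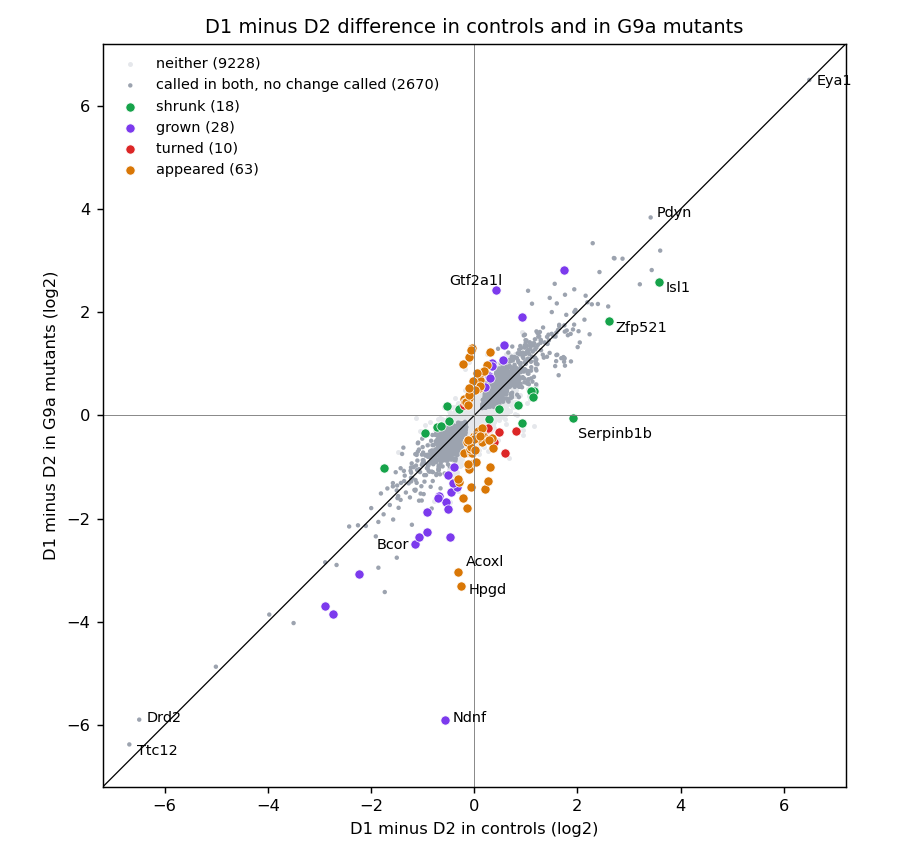
Difference between D1 and D2 neurons (log2, D1 minus D2) in controls on the horizontal and in G9a mutants on the vertical axis, 1 point per gene, with genes whose difference changed in colour by class. Most genes follow the diagonal, and Ndnf stands farthest from it, at −0.57 in controls and −5.90 in mutants.

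The change itself was tested as the D1 minus D2 difference of mutants minus that of controls. It passed for 119 genes (0.990%), 40 toward D1 (0.333%) and 79 toward D2 neurons (0.657%), with sizes from 0.33 to 5.33. It passed at an unadjusted p under 0.05 for 1474. A further 751 genes were called only in controls and 2308 only in mutants without a passing change, and these are not counted as lost or gained. The 119 divided into 18 differences that shrank, 28 that grew, 10 that turned to the other subtype and 63 that appeared. The number fell to 50 without D1 control saline replicate 1, to 72 without D1 control saline replicate 2 and to 71 without D2 mutant saline replicate 2. In 41 of the 119 the change was called in each of the 27 fits that left out 1 array. A further limit is the filter: 16 of the 119 were above 6 in fewer than 3 arrays outside their highest group (D2 mutants for 10, D1 mutants for 6), so they entered the test through the group in which they were high. In a fit of all 18193 genes with no filter, 15 of these 16 were still called, and for those named here the adjusted p is from that fit.

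Most of the changed genes differed from controls in D2 neurons. Against controls of the same subtype, 82 of the 119 rose in D2 mutants, 22 fell and 15 did not pass, whereas 43 rose in D1 mutants, 6 fell and 70 did not pass. The genotype difference was the larger in D2 neurons for 94 genes and in D1 neurons for 25. In 30 genes both subtypes rose, and in 52 D2 neurons rose while the D1 change did not pass. D2 mutant and D2 control arrays did not overlap for 68 of the 119 (4.75% of all genes tested), and D1 mutant and D1 control arrays for 38 (2.44%). These 119 were chosen by the change, so the counts describe them and are no separate test. The shares of all tested genes that rose or fell with genotype in each subtype are not given here. The counts of rises and falls, here and by class below, thus cannot be read as an excess over all genes.

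D2 mutant cocaine replicate 4, the array with conflicting labels, had Ehmt2 at 8.96, within the range of the D2 mutants and under every D2 control (10.67 to 11.01). Over the 119 genes it lay below the other 6 D2 mutants in 10 and above them in 9. It was lower, for example, for Hpgd (7.59, others 7.70 to 8.65), Bcor (10.42, others 10.64 to 11.17) and Btla (6.17, others 6.48 to 7.94). In 69 genes the other 6 D2 mutants did not overlap the D2 controls, and in 1 of these the array lay in the control range. Without it 87 changes were called, 84 of them among the 119.

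With that array counted as a control, 18 changes were called (1 shrunk, 8 grown, 0 turned, 9 appeared), and of the 41 changes that no single array ended, 16 were still called. This reading places Serpinb1b at 9.89 among D2 controls at 6.25 to 6.89, and Acoxl at 9.27 among D2 controls at 5.02 to 5.84. For such genes it widens the spread in that fit. Of the genes described here, the changes of Ndnf, Hpgd, Gtf2a1l, Anxa10, Bcor, Gse1, Bahcc1, Zranb3, Khdrbs2, Npy1r and E130119H09Rik still passed. Those of Serpinb1b (−1.59, adjusted p = 0.28), Gabrb1 (−0.92, adjusted p = 0.16), Isl1 (−0.89, adjusted p = 0.17), Zfp521 (−0.65, adjusted p = 0.28) and Acoxl (−2.31, adjusted p = 0.10) did not. Nor did those of Prkca, Tnrc18, Tacr3, Upb1, Rassf3, Lhx8, Mitf, Plagl1, Efcab1, Abi3bp, Cd55 and Cd2. For Gbe1 (adjusted p = 0.74) and Ccdc141 (adjusted p = 0.87) the change failed, and so did the mutant difference itself (adjusted p = 0.054 and 0.19).

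Of the 18 differences that shrank, Serpinb1b and Gabrb1 changed by more than 1 log2. Serpinb1b, an inhibitor of serine proteases, was higher in D1 than in D2 controls (8.16 to 8.88, median 8.50, against 6.25 to 6.89, median 6.70), without overlap. In mutants it ran from 9.48 to 9.99 (median 9.75) in D1 and from 9.61 to 9.91 (median 9.78) in D2 neurons. The mutant ranges overlapped and lay above all controls, and the difference went from 1.91 to −0.04 (change −1.95 ± 0.17 SE, limma adjusted p = 2.89e-08). Gabrb1, the beta1 subunit of the GABA-A receptor, was 10.85 to 11.23 (median 10.97) in D1 and 9.84 to 10.23 (median 10.09) in D2 controls, and 11.36 to 11.57 (median 11.53) and 11.46 to 11.73 (median 11.68) in the mutants. It too rose in both subtypes to overlapping levels, and its difference went from 0.93 to −0.14 (adjusted p of the change 2.63e-08). Without D1 mutant saline replicate 3 the mutant difference was called (−0.17, limma adjusted p = 0.0407), and Gabrb1 would then count as turned.

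Other differences shrank through 1 subtype. Khdrbs2, an RNA-binding protein, was higher in D2 controls by 0.53 and lay on the other side in mutants (0.19, adjusted p = 0.101), with a rise of 0.60 in D1 neurons (adjusted p = 0.000189). This mutant difference was called under cyclic loess scaling (0.23, adjusted p = 0.0463), with array weights, in the cocaine mice, without the 3 arrays with high Ttr and without D2 mutant saline replicate 3 or D1 mutant saline replicate 3 (0.24, adjusted p = 0.0480, in the least favourable), and Khdrbs2 would then count as turned. Prkca, protein kinase C alpha, was higher in D1 neurons by 1.09 in controls and by 0.46 in mutants, with a rise of 0.46 in D2 neurons (adjusted p = 0.000882), and its D1 and D2 mutant arrays still did not overlap (10.12 to 10.48 against 9.58 to 10.01). Its change of −0.63 (adjusted p = 0.0142) was −0.15 (adjusted p = 0.745) in the probe set with the largest interquartile range, and did not pass without D1 control saline replicate 1 (−0.57, adjusted p = 0.0883). Over the 18 genes D1 and D2 mutants overlapped in 12 and did not in 6, against 17.5% of all genes without overlap. The number of differences that shrank was 30 without D1 control cocaine replicate 3, 11 without D2 mutant saline replicate 2 and 7 without D1 control saline replicate 1.

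The 28 differences that grew were 18 higher in D2 and 10 higher in D1 neurons. D1 and D2 mutants did not overlap in any of them, against 17.5% of all genes without overlap. A larger difference in mutants was required for this class, so the lack of overlap is no separate support. Ndnf, a secreted neurotrophic factor, had the largest change of all. In D2 mutants it ran from 9.74 to 10.86 (median 10.51) and in D2 controls from 5.01 to 5.70 (median 5.20), while D1 mutants (4.37 to 4.59, median 4.44) and D1 controls (4.43 to 5.02, median 4.70) stayed under 6. The D2 mutants stood apart from all other arrays, the difference went from −0.57 to −5.90, and the change was −5.33 ± 0.17 (SE, limma adjusted p = 1.15e-17 with no filter on low values). Both control groups and the D1 mutants are near background, so the size of the change is limited by it. Anxa10, an annexin, had the same order at lower signal, at 6.33 to 6.93 (median 6.54) in D2 mutants against 4.33 to 5.00 (median 4.75) in D2 controls, and went from −0.46 to −2.36. Ndnf and Anxa10 were above 6 in D2 mutants alone.

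Several genes already higher in D2 neurons rose further there while the D1 groups overlapped. Bcor, a corepressor found in a variant Polycomb complex, ran from 10.42 to 11.17 (median 10.83) in D2 mutants, 9.02 to 9.92 (median 9.45) in D2 controls, 8.07 to 8.58 (median 8.29) in D1 mutants and 7.59 to 8.49 (median 8.42) in D1 controls. Its difference grew from −1.14 to −2.50 (adjusted p of the change 0.000869). Gse1, a partner of CoREST and histone deacetylases, grew from −0.92 to −2.26, and Bahcc1, a reader of trimethylated H3 lysine 27, from −0.55 to −1.67. Tnrc18, which has a related domain that reads trimethylated H3 lysine 9, grew from −1.07 to −2.36, but its change did not pass when D1 control saline replicate 1 was left out (−1.22, adjusted p = 0.0685) or with glial markers as a covariate (−1.04, adjusted p = 0.136). Tacr3, the neurokinin B receptor, grew from −0.50 to −1.81, with 7.50 to 8.16 (median 7.99) in D2 mutants and 6.08 to 7.26 (median 6.68) in D2 controls. Upb1, an enzyme of pyrimidine breakdown, grew from −2.89 to −3.69. In Gse1, Bahcc1, Tnrc18, Tacr3 and Upb1 the D2 mutant and D2 control arrays did not overlap.

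On the D1 side, Gtf2a1l, a germ-cell form of a general transcription factor subunit, ran from 6.67 to 7.33 (median 7.13) in D1 mutants and from 4.98 to 5.44 (median 5.21) in D1 controls. D2 mutants (4.45 to 4.84) and D2 controls (4.57 to 4.97) overlapped, and the difference grew from 0.42 to 2.43 (adjusted p of the change 1.2e-10 with no filter). It was above 6 in D1 mutants alone. Rassf3, a Ras-association domain protein, grew from 1.74 to 2.82 with a genotype difference of −0.96 in D2 neurons (adjusted p = 4.19e-05), where mutants ran from 5.86 to 6.80 (median 6.38) and controls from 6.86 to 7.83 (median 7.27), without overlap. Among the 28 genes 20 rose in D2 mutants and 16 of these did so with no passing change in D1 neurons. The number of differences that grew was 12 without D1 control saline replicate 1.

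In 10 genes the higher subtype changed, and in 9 of them D2 neurons were the higher in mutants. Mitf, a transcription factor, was higher in D1 controls (7.48 to 7.91, median 7.60) than in D2 controls (7.04 to 7.39, median 7.17). In mutants it was higher in D2 neurons (8.19 to 8.70, median 8.37) than in D1 neurons (7.79 to 8.10, median 7.85), without overlap in either genotype. Its difference turned from 0.38 to −0.51 (change −0.90 ± 0.12 SE, limma adjusted p = 4.22e-05). Plagl1, an imprinted zinc finger gene, turned from 0.48 to −0.32 and rose in both subtypes, by 1.51 in D2 and 0.71 in D1 neurons. Efcab1, a ciliary calcium-binding protein, turned from 0.81 to −0.30, but the mutant difference (adjusted p = 0.0388) was lost without any of 7 arrays.

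Abi3bp, an extracellular matrix protein, had the largest turn, from 0.60 to −0.72. It ran from 7.45 to 8.08 (median 7.77) in D2 mutants, 6.49 to 7.45 (median 7.14) in D1 mutants, 5.76 to 6.72 (median 6.35) in D2 controls and 6.24 to 7.44 (median 6.95) in D1 controls. The D2 mutants lay above the D2 controls, while the D1 groups overlapped, and the change of −1.33 (adjusted p = 0.00816) did not pass when D1 control saline replicate 1 was left out (−1.18, adjusted p = 0.0643) or with glial markers as a covariate (−1.13, adjusted p = 0.0980). The number of genes that turned was 6 without D1 control saline replicate 1, D2 control saline replicate 1, D2 control saline replicate 2, D2 mutant saline replicate 2 or D2 mutant cocaine replicate 4, and 5 without D2 mutant saline replicate 3.

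The 63 differences that appeared were 42 higher in D2 and 21 higher in D1 mutants. D1 and D2 mutant arrays did not overlap in 47 of them, against 17.5% of all genes without overlap. A call in mutants was required for this class, so this count is no separate support. Hpgd, a dehydrogenase that inactivates prostaglandins, ran from 7.59 to 8.65 (median 8.18) in D2 mutants, against 4.30 to 5.42 (median 4.66) in D1 mutants, 4.20 to 4.78 (median 4.52) in D1 controls and 4.42 to 5.00 (median 4.83) in D2 controls. The D2 mutants alone stood above 6, and the difference was −3.31 in mutants and −0.27 in controls (change −3.04 ± 0.18 SE, limma adjusted p = 1.36e-11 with no filter). Acoxl, an acyl-CoA oxidase-like protein, ran from 8.56 to 9.27 (median 8.80) in D2 mutants, 5.61 to 6.19 (median 5.71) in D1 mutants, 4.85 to 5.56 (median 5.28) in D1 controls and 5.02 to 5.84 (median 5.66) in D2 controls. The D2 mutants lay above all other arrays and the D1 mutants just above the D1 controls, with a difference of −3.03 in mutants against −0.31 in controls (adjusted p of the change 6.67e-11 with no filter). The promoter sequences of both genes are printed above.

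A second pattern among these genes was a rise in both subtypes that was larger in D2 neurons. Gbe1, the glycogen branching enzyme, ran from 9.43 to 10.35 (median 9.85) in D2 mutants and from 8.02 to 9.16 (median 8.68) in D1 mutants, while controls of both subtypes lay between 5.36 and 6.33. It rose by 4.18 in D2 and by 2.65 in D1 neurons, and the 4 groups gave a difference of −1.27 in mutants and 0.26 in controls. Ccdc141, a coiled-coil protein with a role in neuron migration, rose by 6.10 in D2 and 4.78 in D1 neurons, from controls between 3.55 and 4.46 to 9.68 to 10.14 in D2 and 8.63 to 9.43 in D1 mutants. Cd55, a regulator of complement on the cell surface, rose by 2.79 and 1.14, and Cd2, a lymphocyte surface protein, by 2.22 and 0.84. For Gbe1, Ccdc141, Cd55 and Cd2 the mutants and controls of each subtype did not overlap, nor did the D1 and D2 mutants.

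Zranb3, a DNA translocase of replication repair, rose more in D1 neurons. It ran from 9.36 to 10.06 (median 9.68) in D1 mutants and from 8.21 to 8.70 (median 8.40) in D2 mutants, while all controls lay between 6.69 and 7.47. The rise was 2.72 in D1 and 1.39 in D2 neurons, and the difference was 1.27 in mutants against −0.06 in controls. Npy1r, a neuropeptide Y receptor, was higher in D1 mutants by 1.00 (7.14 to 7.94 against 5.80 to 7.11), but its change of 1.22 (adjusted p = 0.0072) did not pass without D1 control saline replicate 1 (1.1, adjusted p = 0.0556). Over the 63 genes 43 rose in D2 and 23 in D1 mutants, 16 of them in both. In 17 of the 63 both control means were under 6, against 466 of all 12017 genes, so that a control difference there would have been hard to measure. The number of differences that appeared was 25 without D1 control saline replicate 1, 33 without D1 control saline replicate 2, 33 without D2 mutant saline replicate 2, 39 without D2 control saline replicate 1, 40 without D2 control cocaine replicate 1 and 41 without D1 mutant saline replicate 1, D1 mutant saline replicate 2, D2 mutant saline replicate 3 or D2 mutant cocaine replicate 4.

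**Figure D3:**
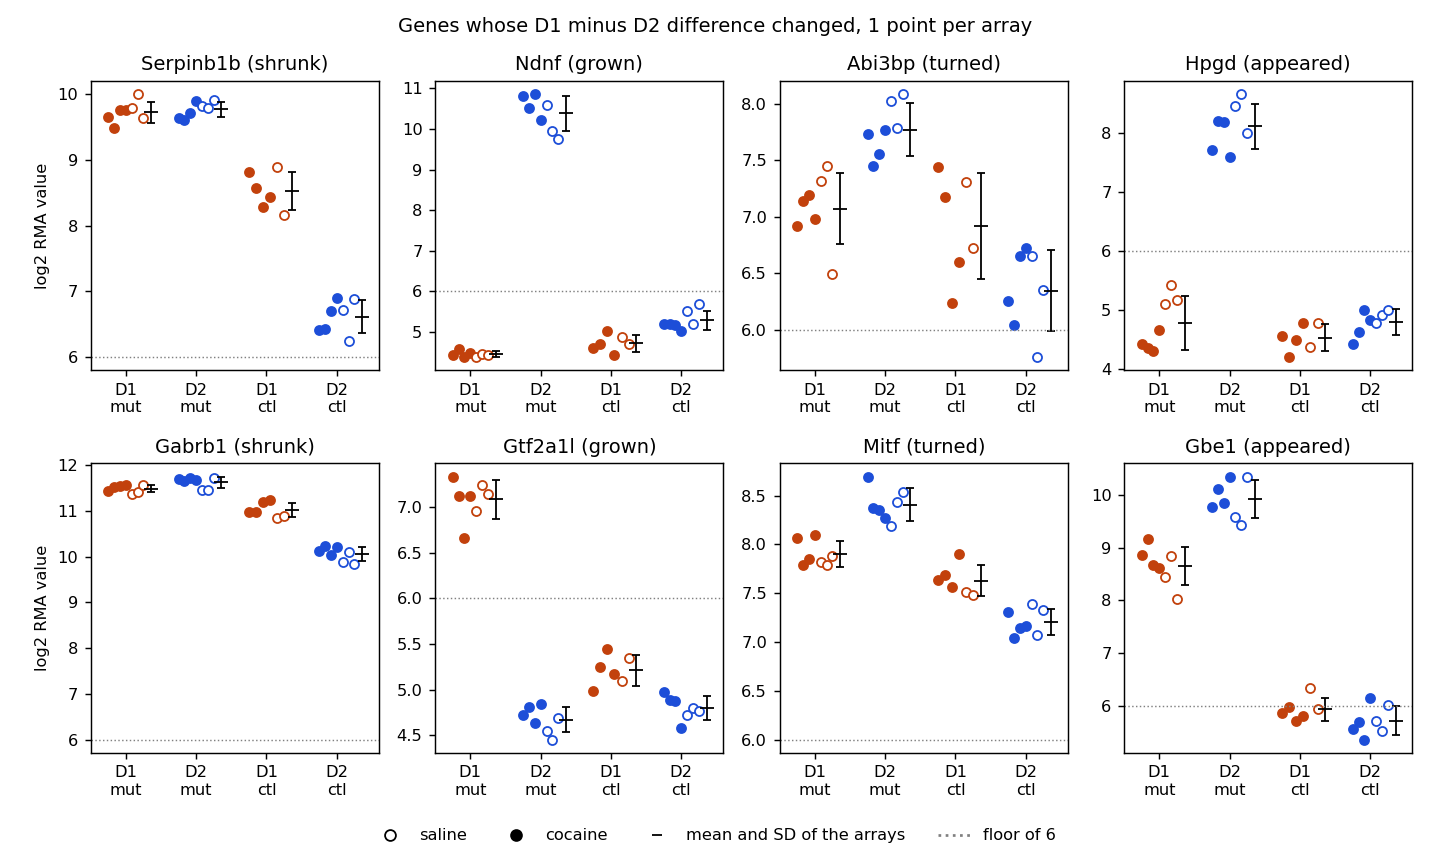
Log2 signal on each array for Serpinb1b and Gabrb1 (shrunk), Ndnf and Gtf2a1l (grown), Abi3bp and Mitf (turned), and Hpgd and Gbe1 (appeared). Arrays are grouped by subtype and genotype, with points for arrays and bars for group means. Serpinb1b meets at the same level in both mutant groups (medians 9.75 and 9.78), while Ndnf and Hpgd are high in D2 mutants only among the 4 groups.

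The gene lists sort all differences called in mutants, whether or not they were called in controls, by function. They are read against the 16.6% of all genes higher in D1 and the 25.8% higher in D2 mutants and the median of −0.04. Counts in controls are read against 11.9% and 17.1% of all genes. More genes were thus called in mutants over all genes, and a higher mutant count is by itself no trait of a list. Among genes shared by all medium spiny neurons, 11 of 23 were higher in D2 and 3 in D1 mutants (median −0.27). Ikzf1, a zinc finger transcription factor, was higher in D1 mutants by 2.01 and in controls by 1.94. Gng7, a G protein gamma subunit of the dopamine receptor pathway, was higher in D2 neurons by 0.67 in both genotypes. In dopamine and cAMP signalling 15 of 31 were higher in D2 and 4 in D1 mutants (12 and 6 under cyclic loess scaling), and none had a passing change.

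Of the 15 neuropeptide precursors 8 were higher in D1 and 4 in D2 mutants (8 and 3 in controls). Beside Pdyn, Tac1 and Penk, Crh, corticotropin-releasing hormone, was higher in D1 mutants by 2.54 (3.21 in controls) and Scg2, secretogranin II, by 1.12 (1.35). The difference was −2.76 in mutants and −1.50 in controls for Nts, −0.35 and −0.67 for Cartpt, and −0.35 and 0.13 for Chga. No precursor had a passing change, but that of Chga passed without D2 control cocaine replicate 4 (−0.52, limma adjusted p = 0.0418). Of 22 adenosine, muscarinic, serotonin, opioid and peptide receptors 10 were higher in D1 and 7 in D2 mutants, against 6 and 8 in controls. The change passed for 3 of them, Npy1r, Tacr3 and Htr1d, a serotonin receptor whose change was lost without any of 9 arrays. Sstr4, a somatostatin receptor, was higher in D1 neurons by 2.19 in both genotypes, and Oprd1, the delta opioid receptor, was higher in D2 neurons by 2.13 in mutants and 2.25 in controls. Of 19 glutamate receptors 8 were higher in D1 and 4 in D2 mutants (9 and 2 under cyclic loess). Grik3, a kainate receptor, was the largest, at −3.86 in mutants and −3.97 in controls. Of 9 GABA-A receptor subunits 2 were higher in D1 and 0 in D2 mutants, against 2 and 2 in controls.

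Of 45 axon guidance genes 13 were higher in D1 and 8 in D2 mutants, against 8 and 7 in controls, and the change passed for 2 of them, Unc5a and Efnb3. Both changes were lost without D1 control saline replicate 1, among others: Unc5a without any of 8 arrays and Efnb3 without any of 5. Unc5d, a netrin receptor, was higher in D2 neurons by 1.42 in mutants and 1.68 in controls. Of 29 striatal and forebrain transcription factors 10 were higher in D1 and 9 in D2 mutants, against 9 and 7 in controls, with 3 passing changes (Isl1, Zfp521 and Lhx8). Ebf1, which shapes the D1 neuron lineage, was higher in D1 neurons by 3.04 in mutants and 2.87 in controls, and Meis1, a homeodomain factor, was higher in D2 neurons by 1.11 and 1.22. Of 23 writers, partners and erasers of H3 lysine 9 methylation 3 were higher in D1 and 3 in D2 mutants (4 and 2 under cyclic loess), and none had a passing change. The mutant call was lost without 1 array for Setdb1, any of 2 for Kdm1a and any of 5 for Kdm7a. Among 20 activity-induced immediate early genes, D1 mutants had 5 that were higher and D2 mutants 2, against 10 and 0 in controls, again with no passing change. Of 12 clustered protocadherins 2 were higher in D2 mutants and 10 did not pass.

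Housekeeping lists leaned to D2 neurons in both genotypes. Of 44 cytosolic ribosomal protein genes 38 were higher in D2 mutants and 0 in D1 mutants (median −0.52), against 37 and 2 in controls, and 34 and 0 in mutants under cyclic loess (median −0.41). Of 73 oxidative phosphorylation genes 61 were higher in D2 and 0 in D1 mutants (median −0.32), against 51 and 0 in controls. Under cyclic loess the mutant counts were 36 and 4 with a median of −0.18. No ribosomal or oxidative phosphorylation gene had a passing change.

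**Figure D4:**
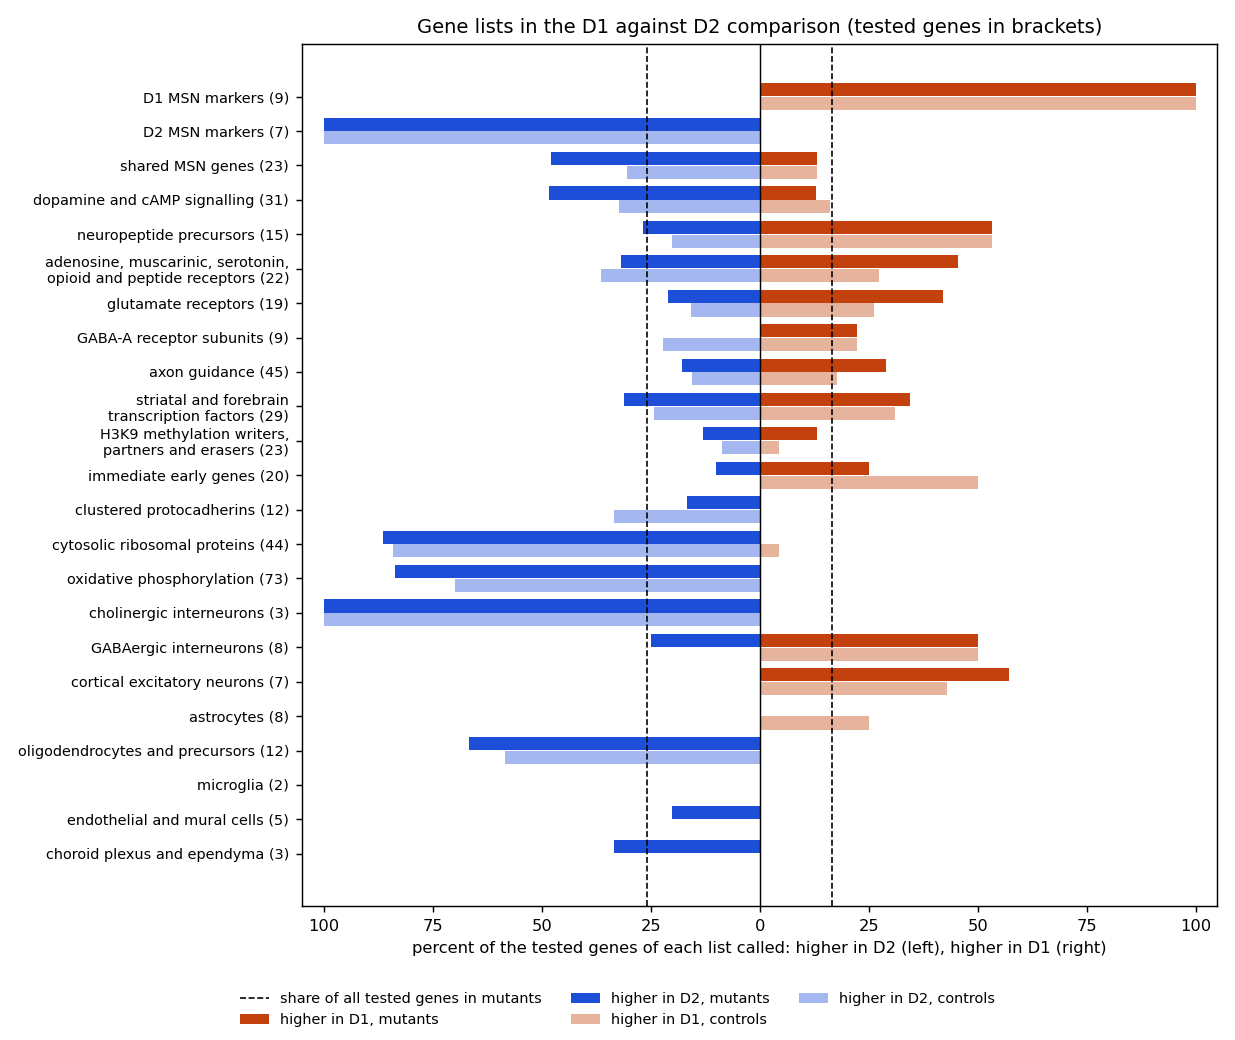
For each gene list, the percent of tested members that were higher in D1 or in D2 neurons, in mutants and in controls. The ribosomal protein list has 38 of 44 members higher in D2 mutants, and the immediate early genes have 5 of 20 higher in D1 mutants against 10 of 20 in controls. Over all genes 16.6% were higher in D1 and 25.8% in D2 mutants, against 11.9% and 17.1% in controls.

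Markers of other cell types also differed between the subtypes, and whether these transcripts came from tagged cells was not tested. All 3 tested markers of cholinergic interneurons were higher in D2 than in D1 neurons in both genotypes. Their mean signal was 7.32 to 8.15 (median 7.97) in D2 mutants, 6.62 to 7.73 (median 6.81) in D2 controls, 5.28 to 5.53 (median 5.38) in D1 mutants and 5.37 to 5.59 (median 5.51) in D1 controls. Lhx8, 1 of the 3 and a regulator of the cholinergic fate, had a difference that grew from −2.75 to −3.85 (not passing without D1 control saline replicate 1, at −1.08, adjusted p = 0.0569). The defining markers Chat and Slc5a7 were below the limit for testing. Of 12 oligodendrocyte and precursor markers 8 were higher in D2 mutants and 7 in D2 controls, with means of 7.85 to 8.22 (median 8.0) in D2 mutants, 6.92 to 7.73 (median 7.62) in D2 controls, 7.09 to 7.58 (median 7.38) in D1 mutants and 7.01 to 7.39 (median 7.22) in D1 controls. Both lists were thus highest in D2 mutants, the group in which most changed genes rose. With the mean of the astrocyte and oligodendrocyte markers of each array in the fit, 1265 genes were higher in D1 and 1529 in D2 mutants, and 60 changes passed, 8 of them shrunk, 18 grown, 4 turned and 30 appeared. The part of the cholinergic markers was not tested.

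Cortical markers lay on the D1 side. Of 7 markers of cortical excitatory neurons 4 were higher in D1 mutants and 0 in D2 mutants, with means of 6.75 to 7.81 (median 7.33) in D1 and 6.53 to 6.73 (median 6.61) in D2 mutants. Of 8 markers of GABAergic interneurons 4 were higher in D1 and 2 in D2 mutants. None of 2 microglia markers passed in mutants. None of 8 astrocyte markers passed either, against 2 higher in D1 neurons in controls. Aldoc, an astrocyte aldolase, was near the threshold (0.38, adjusted p = 0.0531) and was called under cyclic loess (0.44, adjusted p = 0.0273), under median centring (0.38, adjusted p = 0.0448) and without any of 9 arrays. In the remaining lists 1 of 5 endothelial and mural markers and 1 of 3 choroid plexus markers were higher in D2 mutants. The part of the cortical markers in the differences toward D1 neurons was not tested.

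Under saline 2847 genes were called between the subtypes of the mutants, and under cocaine 3697. Drd1 differed by 1.95 under saline and 2.28 under cocaine, Isl1 by 2.60 and 2.58, and Ndnf by −5.67 and −6.13. The dependence of the D1 minus D2 difference on the drug passed in limma for 0 genes in mutants (0.00%), with a smallest adjusted p of 0.562, and for 565 at an unadjusted p under 0.05. It passed for 1 gene without D1 mutant saline replicate 2.

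By RefSeq order of the tested genes (GRCm38.p6), the receptor genes have neighbours with strong subtype differences. Sfxn1, a mitochondrial serine transporter next to Drd1, was higher in D1 neurons by 3.05 in mutants and 2.71 in controls, and Ttc12 lies next to Drd2. Next to Drd2 on the other side, Zw10, a kinetochore protein, differed by −0.16 in mutants. The neighbour of Drd1 on its other side, E130119H09Rik, was singled out after its values were seen: it ran from 6.34 to 6.75 (median 6.51) in D1 mutants, 5.73 to 6.08 (median 5.83) in D2 mutants, 5.89 to 6.10 (median 6.06) in D1 controls and 5.63 to 6.42 (median 6.07) in D2 controls. The D1 mutants alone stood above the other groups but for the highest D2 control, and the difference was 0.67 in mutants and −0.02 in controls (limma adjusted p of the change 0.00695). The mice carry BAC transgenes built on these receptor genes, and transcripts of a transgene and of the endogenous locus cannot be told apart on the array. Of the 119 changed genes, 0 lay next to another changed gene among the 11995 tested genes with a position. By their number alone few would, and clusters broken by an unchanged gene were not counted. The count thus cannot show whether the changed genes cluster.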

How the data were processed

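Polyribosome-associated messenger RNA from striatum, precipitated by the GFP tag and amplified in 2 cycles per the labels' protocols, was hybridised to 27 Affymetrix mouse whole-genome arrays. The deposited values are log2 intensities which the authors computed by RMA (robust multi-array averaging), and the submitters' processing notes name Affymetrix Expression Console 1.1. RMA assumes like distributions on all arrays, so a global shift between groups would be removed. No batch is given in the sources used here, and precision is limited by how many arrays there are.

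Of 45101 probe sets, 64 were controls, 34945 had 1 gene symbol (34741 matched to a RefSeq gene), 932 several and 9160 none. For each of 18193 symbols the probe set of highest mean was taken, and the 12017 above 6 log2 in at least 3 arrays were tested. All arrays were fitted in limma 3.58.1 (R 4.3.3) with 1 mean for each of 8 groups of subtype, genotype and drug, after the script was tested on simulated data. Contrasts were D1 minus D2 in mutants, in controls, and their difference, with drugs weighted equally. Benjamini-Hochberg adjustment ran within each contrast over all genes tested, with a threshold of 0.05. A difference shrank, grew or turned if it was called in controls and the difference of differences passed, and appeared if it was called only in mutants and that difference passed.

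The members and gene lists were chosen with earlier results of these data known. Named genes were the 12 largest differences in each direction in mutants, the 12 largest changes per class, all markers of both neuron types, and up to 6 and 4 members of each list by the smallest p in mutants and of the change. Genes without a proper name were counted and not named. Alternatives were the probe set, the filter, scaling, moderation, array weights, covariates for RNA quality and glial markers, a fold of at least 1.5, each drug alone, the conflicting label, the replicate number and each array left out.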

Additional observations from a re-analysis of the deposited data

Results flagged for a closer look

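Within the groups of 4 arrays, 5 of 116 combinations of gene and group had 1 array far from the rest, and chance gives about 1 in 20. D1 control cocaine replicate 3 was low for Bcor (7.59, against 8.46 to 8.49 in the other 3 arrays) and for Isl1 (10.04, against 10.76 to 10.87). D1 mutant cocaine replicate 4 was low for Cd55 (5.92, against 6.03 to 6.04), D1 mutant cocaine replicate 3 was low for Efcab1 (7.94, against 8.13 to 8.15) and D2 control cocaine replicate 4 was low for Ndnf (5.01, against 5.17 to 5.20).

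The difference between D1 and D2 neurons was itself different between mutants and controls by the limma test of the change for the gene with the largest change in each class. The change was −5.33 for Ndnf, −3.04 for Hpgd, −1.95 for Serpinb1b and −1.33 for Abi3bp.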

How the results depend on the processing

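Under the alternatives that kept all arrays, counts not given here stayed within 1.5 times the reported ones. With glial markers as a covariate, 1265 genes were higher in D1 and 1529 in D2 mutants and 60 changes passed (8 shrunk, 18 grown, 4 turned, 30 appeared). Requiring a fold of at least 1.5 by limma's treat left 142 and 118 genes in mutants, 155 in controls, 126 kept and 9 changes (2 shrunk, 0 grown, 0 turned, 7 appeared). The fold was required of the control difference too. In controls Ndnf (0.57 log2 in size), Anxa10 (0.46) and Gtf2a1l (0.42) were under it, so they could not count as grown there. The saline contrasts, within the same fit, gave 993 and 1854 in mutants, 1962 in controls, 1235 kept and 22 changes (6 shrunk, 4 grown, 1 turned, 11 appeared). The cocaine contrasts gave 1535 kept and 58 changes (11, 13, 6 and 28). Array weights gave 352 changes (85, 61, 35 and 171). With the conflicting label taken as control, 18 changes passed (1, 8, 0 and 9). The RNA quality covariate gave 30 shrunk and 16 turned, the probe set with the largest interquartile range 5 turned, and leaving out the 3 arrays with high Ttr 18 turned. The cause of these shifts was not tested.

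Leaving out each array in turn gave 1754 to 2181 genes higher in D1 and 2804 to 3339 higher in D2 mutants, 2310 to 4083 control calls, 1897 to 3110 kept, 50 to 139 changes, 7 to 30 shrunk, 12 to 30 grown, 5 to 15 turned, 25 to 64 appeared, 0 to 1 gene with drug dependence and an RNA quality difference of 0.0216 to 0.134. The same replicate number in D1 and D2 mutants gave correlations of deviations from −0.134 to 0.0700, so numbers were not treated as pairs, and the fit with a replicate block called 140 changes, 108 of them among the 119, and called Ehmt2 between the mutants (adjusted p = 0.0257).

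The mutant difference turned its sign with the other probe set for Slc7a14 (0.17), Ddx46 (0.37), Homer1 (0.16) and Ndufa10 (0.22), and with the glial covariate for S100b (0.43) and Slc1a2 (0.61). Both S100b and Slc1a2 are among the markers averaged in that covariate. Without it their differences, 0.07 and 0.005 toward D2 neurons, were not called. Genes under 6 log2 in 1 subtype have differences limited by background.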
